A study of Mus musculus with 6 samples.

Results

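Collagen genes were examined in ventricles of dystrophic mice fed finerenone and of untreated dystrophic mice. The members were all rows of the array table whose annotation gave exactly 1 gene symbol of the form Col, number, a, number. The annotation listed 44 such collagen genes. Of these, 42 had a row of their own and were kept, out of 30142 genes in all. Col7a1 shared its row with Mir711 and Col6a4 shared its row with Dvwa, so neither was analysed. The 42 genes were 11 fibrillar chains (types 1, 2, 3, 5, 11, 24 and 27), 9 network-forming chains (types 4, 8 and 10) and 22 chains of other types.

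The finerenone group was 3 male mice that ate chow with 100 ppm of finerenone, a non-steroidal antagonist of the mineralocorticoid receptor, from 4 weeks of age. The untreated group was 3 male mice on the same chow without the drug. All 6 mice lacked dystrophin (mdx), carried 1 utrophin allele (utrn+/-), were on a C57BL/10 background, were 20 weeks old and were assigned to the diets at random, per the labels. With no wild-type heart among the 6 arrays, the collagen levels of a healthy ventricle were not measured here, and each value is the log2 signal of 1 array from 1 mouse.

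Collagens are triple helices of 3 chains that are secreted by fibroblasts and other cells and build the extracellular matrix. Fibrillar collagens form the tensile fibres of the interstitium and of scars, and types I and III are the main ones in heart. Network collagens form sheets, of which type IV is the scaffold of the basement membrane around cardiomyocytes and capillaries. Other types bind to fibrils, form beaded filaments or sit in cell membranes. Mineralocorticoid receptor activation is known to promote myocardial fibrosis, and fibrosis is a feature of dystrophic hearts.

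Cardiomyocyte markers were read to check that the arrays held heart muscle RNA. This check does not tell ventricle from other parts of the heart. The probe sets whose identifiers mark them as negative controls served as the background; what they target is not stated in the files, and their median was used. All 9 measured markers of 10 listed exceeded that median in each of the 6 arrays, and the troponin Tnnt2 averaged 19.93 in both groups, at the top of the scale. Pairs of arrays had correlations of 0.989 to 0.994 across all gene rows. The median of the negative controls ran from 5.04 to 5.33 across arrays and their 95th percentile from 8.35 to 8.73. Since signals of different probe sets are not on a common scale, levels are compared between groups within a gene and not between genes.

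Of the 42 collagen genes, 15 lay above the median of the negative controls in all 6 arrays, and 27 did not. The 15 were Col1a1, Col1a2, Col3a1, Col5a2 and Col5a3 among fibrillar chains, Col4a1, Col4a2, Col4a5 and Col8a1 among network chains, and Col6a1, Col6a2, Col6a3, Col6a6, Col14a1 and Col15a1 among the others. Only Col3a1 exceeded the 95th percentile of the negative controls in all 6 arrays, while Col4a2 did so in 4, Col1a2 in 2, and Col1a1 and Col6a1 in 1. The other 27 genes had signals between 3.56 and 5.29, and their differences between groups ran from -0.045 to 0.08. A small difference at such a signal does not bound a change in the transcript.

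The type IV chains Col4a2 and Col4a1 had the widest differences between groups among the 42 genes, and both were lower in finerenone hearts. The fibrillar chains of types I, III and V differed by -0.13 to 0.21 on the log2 scale. In limma, 0 of 42 collagen genes passed an adjusted p below 0.05, and the same was true of 0 of 30142 genes (0%). At an unadjusted p below 0.05, limma gave 1 lower collagen gene, Col4a2, which is 2.38% of the members against 2.12% of all genes lower and 7.81% in either direction. No higher collagen gene reached that level, where 5.69% of all genes did. Of all genes at that level, 72.9% were higher as deposited and 59.2% after quantile normalization. Among the 42 differences 22 were above 0 and 20 below, with a median of 0.002, while the median over all genes was 0.03. Of the 15 genes above the negative-control median, 5 differences were above 0 and 10 below, with a median of -0.022. Of the other 27 genes, 17 were above 0 and 10 below. Over all 30142 genes, 17543 differences were above 0. The groups did not overlap for 1 gene that was higher (Col11a2, 2.38% of the members against 8.17% of all genes) and for 1 that was lower (Col4a2, 2.38% against 4.18%). Each of these shares rests on 1 gene.

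**Figure D1:**
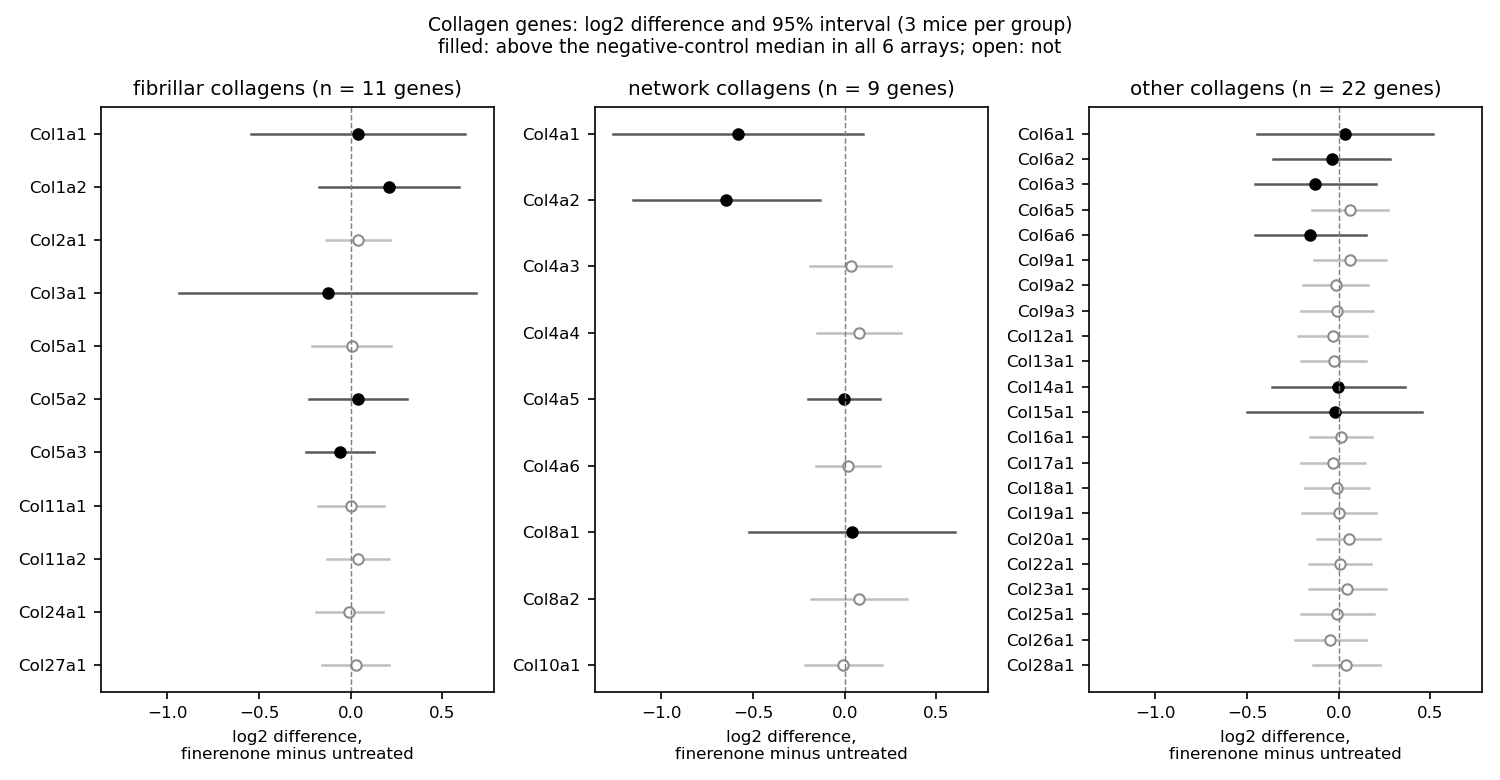
Log2 difference (finerenone minus untreated, horizontal axis) of each of the 42 collagen genes with the 95% interval of the limma fit, by class; filled points are the 15 genes above the negative-control median in all 6 arrays and open points the other 27. The interval of Col4a2 (-1.16 to -0.14) is the only one that leaves out 0.

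One finerenone array was low in many collagens. Among the 15 genes above the negative-control median, finerenone replicate 2 was the lowest array for 10 and finerenone replicate 1 was the highest for 7. After each gene was centred on its mean over the 6 arrays, these 15 genes averaged 0.18, -0.27 and -0.045 in the finerenone arrays and 0.09, 0.12 and -0.07 in the untreated arrays. The 27 dimmer genes did not show this, with averages of 0.003, 0.04 and -0.02 in finerenone arrays and 0.008, 0.008 and -0.04 in untreated arrays. The 11 fibroblast markers had the same order of finerenone arrays, at 0.22, 0.025 and 0.07. Their replicate 2 lay among the untreated arrays (-0.18, 0.17 and -0.30). Some other lists described below had that order too, such as macrophage markers (0.34, -0.046 and 0.21) and collagen-degrading proteases (0.13, -0.185 and 0.03). Others did not, such as endothelial markers (-0.12, -0.17 and -0.36).

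Type I collagen, the main fibre of scar, is made of the chains Col1a1 and Col1a2. Col1a1 measured 8.46, 7.56 and 8.27 in finerenone hearts, against 8.19, 8.13 and 7.85 in untreated hearts. The finerenone arrays spanned the whole untreated range. Its log2 difference was 0.04 ± 0.24 (SE, n = 3 each; limma adjusted p = 0.987), with a 95% interval of -0.54 to 0.62, or 0.686 to 1.54-fold. It was 0.31 without finerenone replicate 2 and -0.14 without finerenone replicate 1. Col1a2 measured 8.64, 8.19 and 8.59 in finerenone hearts and 8.31, 8.44 and 8.05 in untreated hearts, with overlapping groups. Its log2 difference of 0.21 ± 0.16 (limma adjusted p = 0.795, interval -0.17 to 0.59) was the highest among the 42 genes. Leaving out each array in turn gave 0.10 to 0.35. The ratio of Col1a2 to Col1a1 within arrays differed by 0.17 between groups on the log2 scale (two-sided exact permutation p = 0.4, n = 3 each; the lowest p this test can give is 0.1), which is within the spread of the replicates.

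Type III collagen, a homotrimer of Col3a1 chains that is prominent in compliant tissue and early scar, had the widest spread. Col3a1 measured 9.66, 8.41 and 9.41 in finerenone hearts and 9.32, 9.57 and 8.97 in untreated hearts. The SD was 0.66 in finerenone hearts and 0.30 in untreated hearts (n = 3 each), so the difference of -0.13 ± 0.34 (SE) was smaller than the spread of either group. Without finerenone replicate 2 it was 0.25, and without finerenone replicate 1 it was -0.37. Its 95% interval of 0.522 to 1.61-fold leaves room for changes in both directions.

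Type V collagen sits inside type I fibrils and controls their assembly. Col5a1 measured 5.25, 5.10 and 5.18 in finerenone hearts and 5.09, 5.29 and 5.14 in untreated hearts, close to the negative controls, with a log2 difference of 0.005 ± 0.09 (SE). Col5a2 measured 6.02, 5.69 and 5.93 in finerenone hearts and 5.85, 5.93 and 5.74 in untreated hearts, a difference of 0.04 ± 0.11 that was -0.03 without finerenone replicate 1 and 0.13 without finerenone replicate 2. Col5a3 measured 5.40, 5.27 and 5.32 in finerenone hearts and 5.40, 5.41 and 5.34 in untreated hearts, a difference of -0.06 ± 0.08 (-0.09 to -0.026 with each array left out in turn). Groups overlapped for all 3 chains, and their 95% intervals stayed between 0.845 and 1.24-fold. Col5a1 and Col5a3 lay close to the negative controls, so their intervals do not bound a change in the transcript.

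The remaining fibrillar chains, Col2a1 and Col11a1 and Col11a2 of cartilage, Col24a1 and Col27a1, were all dim, and no array passed the negative-control median except 1 array for Col27a1. Col2a1 measured 4.43, 4.51 and 4.46 in finerenone hearts against 4.46, 4.38 and 4.44 in untreated hearts. Col11a2 measured 4.21, 4.18 and 4.18 in finerenone hearts against 4.18, 4.17 and 4.10 in untreated hearts, so its separate groups rested on differences smaller than the rounding shown. Over the 11 fibrillar genes 8 differences were above 0 and 3 below, with a median of 0.03, the same to 2 decimals as over all genes, and 0 reached an unadjusted p below 0.05 in limma.

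**Figure D2:**
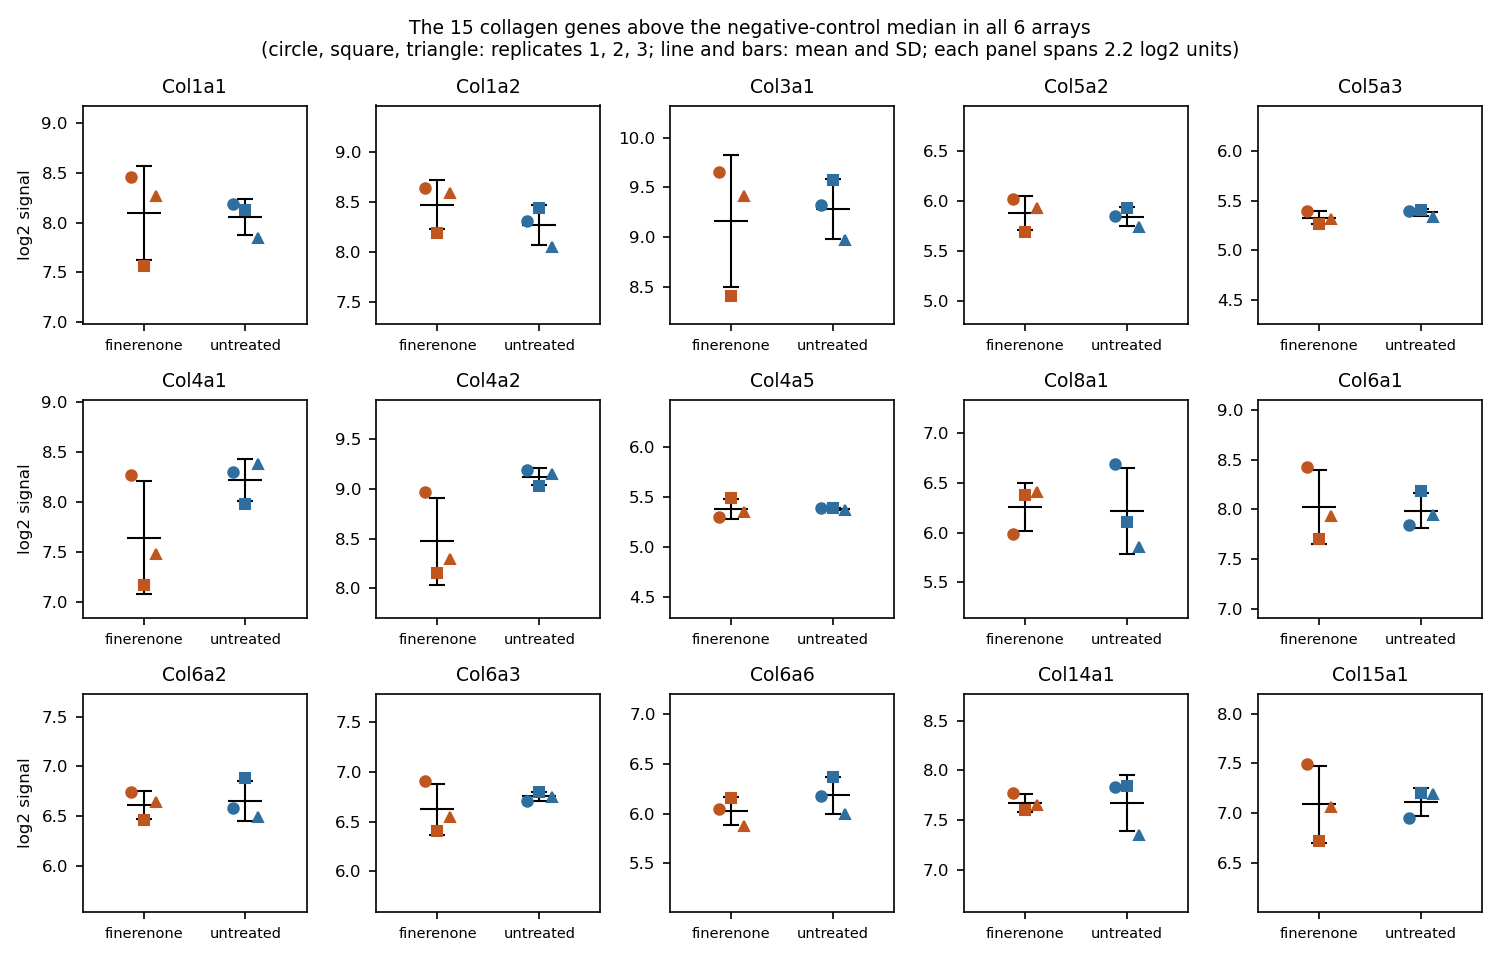
Log2 signal of each array (vertical axis, each panel 2.2 units tall) for the 15 collagen genes above the negative-control median in all 6 arrays; symbols mark replicates 1 to 3, lines and bars the mean and SD of 3 mice. The 3 finerenone arrays lie below the 3 untreated arrays for Col4a2, and finerenone replicate 2 (square) is the lowest array for 10 of the 15 genes.

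Among network collagens, Col4a1 and Col4a2 encode the chains of the type IV collagen found in most basement membranes. The genes lie head to head and share their promoter region. In the RefSeq windows of build GRCm38.p6, which run from 250 bases before to 50 after a start site, the start sites were 21 bases apart and the windows shared 78 bases. The Col4a1 start was at 11312826 and the Col4a2 start at 11312805, so the 5' ends of the transcripts overlapped. Every shared base lay within the first 50 bases of 1 transcript or the other. Both windows are printed because these neighbouring genes gave the widest differences, and capitals mark the shared bases. Col4a1 lies on the minus strand (chr8:11312777-11313076) and Col4a2 on the plus strand (chr8:11312555-11312854).
Col4a1: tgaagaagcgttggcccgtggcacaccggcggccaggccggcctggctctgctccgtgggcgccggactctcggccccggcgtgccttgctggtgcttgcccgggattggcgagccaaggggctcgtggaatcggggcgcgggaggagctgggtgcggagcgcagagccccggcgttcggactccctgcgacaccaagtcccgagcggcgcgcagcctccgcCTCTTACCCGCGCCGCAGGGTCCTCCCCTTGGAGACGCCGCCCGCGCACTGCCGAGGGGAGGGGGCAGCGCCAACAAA
Col4a2: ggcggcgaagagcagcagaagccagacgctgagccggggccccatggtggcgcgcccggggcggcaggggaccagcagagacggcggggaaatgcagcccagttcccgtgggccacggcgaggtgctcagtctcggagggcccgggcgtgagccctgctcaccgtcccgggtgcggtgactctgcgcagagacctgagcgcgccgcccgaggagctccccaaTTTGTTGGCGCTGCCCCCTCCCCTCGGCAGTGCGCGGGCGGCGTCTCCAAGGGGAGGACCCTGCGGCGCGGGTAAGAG

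The shared bases held 73.1% G or C, 1 match to the GC box GGGCGG and 0 matches to the CCAAT box, the TATA box TATAAA, the hormone response element letters TGTTCT or the SMAD element CAGACA, counted on both strands. Each full window held 1 CCAAT match, outside the shared bases in Col4a1 and across their edge in Col4a2. A match or its absence describes these letters only.

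Col4a2 measured 8.97, 8.15 and 8.30 in finerenone hearts, against 9.19, 9.03 and 9.15 in untreated hearts. Each finerenone array was below each untreated array, though finerenone replicate 1 lay only just below. The mean was 8.47 ± 0.43 in finerenone and 9.12 ± 0.09 in untreated hearts (SD, n = 3 each). The log2 difference was -0.65 ± 0.21 (SE), or 0.638-fold with a 95% interval of 0.448 to 0.909, and it did not pass (limma unadjusted p = 0.0205, adjusted p = 0.597). Leaving out each array in turn gave -0.89 to -0.49, and the unadjusted p was then no longer below 0.05 without finerenone replicate 2, finerenone replicate 3, untreated replicate 1 or untreated replicate 3.

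Col4a1 measured 8.27, 7.17 and 7.48 in finerenone hearts, against 8.30, 7.98 and 8.38 in untreated hearts. Finerenone replicates 2 and 3 were below all untreated arrays, and finerenone replicate 1 lay among them. The log2 difference was -0.58 ± 0.28 (SE; 95% interval -1.26 to 0.10; limma unadjusted p = 0.0824, adjusted p = 0.678). It was -0.35 without finerenone replicate 2 and -0.90 without finerenone replicate 1. The 2 genes had the same order of finerenone arrays, and the ratio of Col4a2 to Col4a1 within arrays differed by -0.065 between groups on the log2 scale (exact permutation p = 0.6, n = 3 each).

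Type IV and type I chains were set against each other within arrays. The ratio of Col4a2 to Col1a2 differed by -0.86 between groups, and that of Col4a1 to Col1a1 by -0.62, with no overlap of arrays in either (exact permutation p = 0.1 for each, the lowest possible, and 0.25 after adjustment over the 5 ratios computed). Both ratios were picked after the values were seen. The fifth ratio, of Col6a2 to Col6a1, differed by -0.07 (exact permutation p = 0.9).

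The other type IV chains, known from specialised basement membranes such as that of the kidney glomerulus, were dim except Col4a5. Col4a5 measured 5.30, 5.49 and 5.35 in finerenone hearts and 5.39, 5.39 and 5.37 in untreated hearts, a difference of -0.002 ± 0.08 (SE) that was 0.038 without finerenone replicate 1 and -0.058 without finerenone replicate 2. Col4a4 measured 4.92, 4.91 and 4.92 in finerenone hearts and 4.76, 5.01 and 4.75 in untreated hearts, a difference of 0.08 ± 0.10. Col4a5 and its neighbour Col4a6, which also run in opposite directions, had start sites 1343 bases apart in the same windows.

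Type VIII collagen, a short-chain collagen of blood vessels, was represented by Col8a1, which varied widely in both groups. It measured 5.98, 6.38 and 6.41 in finerenone hearts and 6.69, 6.11 and 5.85 in untreated hearts, a difference of 0.04 ± 0.23 (SE) that turned to -0.14 without untreated replicate 3 and was 0.28 without untreated replicate 1. Col8a2 was dim, with 4.05, 4.33 and 4.05 in finerenone hearts against 4.13, 3.95 and 4.11 in untreated hearts. Over the 9 network genes, which include dim Col4a3, Col4a6 and the cartilage chain Col10a1, the median difference was 0.02 and 1 gene, Col4a2, was lower at an unadjusted p below 0.05 in limma.

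Type VI collagen forms beaded filaments next to basement membranes of muscle, and mutations in its chains cause muscular dystrophy in humans. Col6a1 measured 8.43, 7.70 and 7.93 in finerenone hearts and 7.84, 8.18 and 7.94 in untreated hearts, a log2 difference of 0.03 ± 0.20 (SE). Col6a2 measured 6.74, 6.46 and 6.64 in finerenone hearts and 6.58, 6.88 and 6.49 in untreated hearts, a difference of -0.04 ± 0.13. Groups overlapped in both, and both differences changed sign with single arrays left out. Col6a1 was at -0.17 without finerenone replicate 1 and 0.19 without finerenone replicate 2, and Col6a2 at -0.12 without untreated replicate 3 and 0.079 without untreated replicate 2.

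Col6a3, the longest of the common type VI chains, measured 6.91, 6.41 and 6.55 in finerenone hearts and 6.71, 6.80 and 6.75 in untreated hearts. Finerenone replicate 1 was above and the other 2 finerenone arrays were below all untreated arrays. The difference was -0.13 ± 0.14 (SE; limma adjusted p = 0.864). It was -0.27 without finerenone replicate 1 and -0.02 without finerenone replicate 2. Col6a6, an alternative to it in the trimer, measured 6.05, 6.16 and 5.88 in finerenone hearts and 6.18, 6.37 and 6.0 in untreated hearts, a difference of -0.16 ± 0.13 that was -0.06 without untreated replicate 2 and -0.245 without untreated replicate 3. Col6a5, a further alternative chain, was dim.

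Types XV and XVIII are proteoglycan collagens at basement membranes. Col15a1 measured 7.49, 6.72 and 7.06 in finerenone hearts and 6.95, 7.20 and 7.19 in untreated hearts. The finerenone arrays spread on both sides of the untreated ones, and the difference was -0.02 ± 0.20 (SE), with -0.22 without finerenone replicate 1 and 0.16 without finerenone replicate 2. Col18a1, whose C-terminal fragment is endostatin, was dim at 4.97, 4.96 and 4.91 in finerenone hearts and 5.02, 4.93 and 4.92 in untreated hearts. Col14a1, which binds to the surface of type I fibrils, measured 7.77, 7.60 and 7.65 in finerenone hearts and 7.83, 7.84 and 7.35 in untreated hearts, a difference of -0.002 ± 0.15 that became 0.035 when finerenone replicate 2 was left out and -0.16 when untreated replicate 3 was.

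The other 14 genes of the class were dim. They were the fibril-associated Col9a1, Col9a2, Col9a3, Col12a1, Col16a1, Col19a1, Col20a1 and Col22a1, the transmembrane Col13a1, Col17a1, Col23a1 and Col25a1, and Col26a1 and Col28a1. With Col6a5 and Col18a1 they made 16 dim genes with signals of 3.82 to 5.07 and differences of -0.045 to 0.06. Col9a1 measured 3.95, 4.05 and 4.08 in finerenone hearts against 3.98, 4.02 and 3.88 in untreated hearts, and Col20a1 measured 4.76, 4.75 and 4.70 against 4.67, 4.72 and 4.65 in untreated hearts. Over the 22 genes, 9 differences were above 0 and 13 below, the median was -0.008, and 0 reached an unadjusted p below 0.05 in limma.

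The precision differed between members. For 9 of the 15 genes above the negative-control median the 95% interval lay within 1.5-fold in both directions. For Col1a1, Col1a2, Col3a1, Col4a1, Col4a2 and Col8a1 it did not, so 3 arrays per group did not bound these chains to that size. Among the 9, Col5a3 (5.27 to 5.41) and Col4a5 (5.30 to 5.49) lay close to the negative-control median (5.04 to 5.33 across arrays). Their narrow intervals do not bound a change in the transcript.

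Promoter windows were at hand for 33 of the 42 genes. GGGCGG on either strand occurred in 20 of them (60.6%), against 38.2% of 27025 genes. CCAAT occurred in 11 (33.3% against 41.1%), TATAAA in 5 (15.2% against 15.7%), CAGACA in 8 (24.2% against 23.6%) and TGTTCT in 2, Col9a1 and Col20a1 (6.1% against 21.3%). CCAAT on the opposite strand reads ATTGG and can share bases with GGGCGG, and such overlaps were not counted. The window of Col1a2 (GRCm38.p6, plus strand, chr6:4505368-4505667) is printed as that of the fibrillar chain with the highest difference, with its 2 CCAAT matches in capitals, of which the second is on the opposite strand.
Col1a2: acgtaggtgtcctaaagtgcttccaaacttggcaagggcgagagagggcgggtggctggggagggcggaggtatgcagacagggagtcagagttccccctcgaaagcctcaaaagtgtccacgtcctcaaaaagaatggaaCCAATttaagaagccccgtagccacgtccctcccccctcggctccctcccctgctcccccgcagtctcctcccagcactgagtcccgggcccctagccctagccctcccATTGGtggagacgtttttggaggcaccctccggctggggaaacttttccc

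Collagen chains need enzymes and chaperones in the cell and proteases and crosslinking enzymes outside it. Of 75 genes listed for these steps, 70 were measured and 0 passed the adjusted threshold in limma. At an unadjusted p below 0.05, 6 were higher (8.57% against 5.69% of all genes) and 1 was lower (1.43% against 2.12%). The groups did not overlap for 8 higher genes (11.4% against 8.17%) and 4 lower ones (5.71% against 4.18%). These shares lie near the background.

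In the list for hydroxylation, glycosylation and folding, 12 of 16 measured genes had a positive difference and the median was 0.10. P4ha1, the catalytic subunit of prolyl 4-hydroxylase, measured 10.53, 10.49 and 10.83 in finerenone hearts against 10.43, 10.15 and 10.16 in untreated hearts, a log2 difference of 0.37 ± 0.13 (SE; limma adjusted p = 0.607). P4hb, its partner subunit and a disulfide isomerase, measured 13.25, 13.19 and 13.10 against 12.95, 13.02 and 12.84 in untreated hearts, a difference of 0.25 ± 0.09 (adjusted p = 0.607) that was 0.125 after quantile normalization and 0.16 after cyclic loess. For both genes every finerenone array was above every untreated array. Serpinh1, the collagen chaperone Hsp47, measured 7.16, 7.08 and 6.79 in finerenone hearts against 6.33, 7.17 and 6.71 in untreated hearts, and its difference of 0.28 ± 0.22 was 0.07 without untreated replicate 1.

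Outside the cell, the procollagen C-proteinase enhancers Pcolce2 and Pcolce had positive differences. Pcolce2 measured 8.85, 8.87 and 8.90 in finerenone hearts against 8.72, 8.50 and 8.53 in untreated hearts (0.29 ± 0.09, SE; limma adjusted p = 0.597), with no overlap. Pcolce measured 6.88, 7.07 and 7.15 against 6.72, 6.90 and 6.66 in untreated hearts (0.27 ± 0.11; adjusted p = 0.625), with finerenone replicate 1 just below untreated replicate 2. The 10 measured genes of procollagen processing had a median of 0.09.

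Lysyl oxidases crosslink collagen. Lox measured 7.27, 7.05 and 7.18 in finerenone hearts against 7.02, 6.88 and 6.77 in untreated hearts, without overlap (0.28 ± 0.10, SE; limma adjusted p = 0.612). Its relative Loxl1 measured 9.08, 9.07 and 8.69 against 9.31, 9.46 and 8.86 in untreated hearts, a difference of -0.26 ± 0.19, which became -0.13 when finerenone replicate 3 was left out and -0.44 when untreated replicate 3 was. The 5 measured crosslinking genes had a median of -0.02.

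Of 10 measured receptor and uptake genes, Lair1, an inhibitory collagen receptor of leukocytes, measured 5.74, 5.62 and 5.96 in finerenone hearts against 5.42, 5.48 and 5.29 in untreated hearts (0.37 ± 0.11, SE; limma adjusted p = 0.597). The fibroblast collagen receptor Ddr2 differed by 0.18 ± 0.12, and by 0.07 without untreated replicate 3. All 11 macrophage markers had positive differences, with a median of 0.31, beside that of Lair1. Mrc1 stands in both lists. Ccr2, a chemokine receptor of recruited monocytes, measured 5.55, 5.66 and 6.05 in finerenone hearts against 5.25, 5.23 and 5.25 in untreated hearts (0.51 ± 0.14, SE; limma adjusted p = 0.597). Fcgr1, an IgG receptor, measured 6.79, 6.59 and 6.68 against 5.96, 6.54 and 5.75 in untreated hearts (0.60 ± 0.20; limma adjusted p = 0.604), and neither gene overlapped between groups. The summed signal of those markers was 15.98 to 16.79 in finerenone and 15.32 to 16.06 in untreated hearts on the log2 scale. It was mostly that of Lyz2 (15.81 to 16.66 in finerenone and 15.07 to 15.88 in untreated hearts). Of the 11 markers, 10 were above the negative-control median in every array. The exception was Ccr2, above it in 5 arrays, whose untreated values lay near that median (5.04 to 5.33 across arrays). The part of these markers in the result was not tested.

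For collagen export 7 genes had a median of 0.04, with Mia3, a receptor that loads procollagen into carriers, at -0.18 ± 0.08 (SE) and Creb3l1 at 0.10 ± 0.19, a sign that turned with single arrays left out. Among 7 proteases that can cut collagen, Mmp14 differed by -0.35 ± 0.24, the dim Mmp1a by 0.11 ± 0.10, and the median was 0.008. Mmp14 was at -0.56 when finerenone replicate 1 was left out and -0.18 without untreated replicate 2, and Mmp1a at 0.05 without untreated replicate 2 and 0.195 without untreated replicate 3. Of 15 regulators of collagen transcription, Srf, a factor for cytoskeletal and matrix genes, measured 9.57, 9.24 and 9.38 in finerenone hearts against 9.70, 9.88 and 9.80 in untreated hearts, without overlap (-0.40 ± 0.11; limma adjusted p = 0.597). Tgfb1, the main profibrotic cytokine, measured 7.73, 7.71 and 7.31 against 7.79, 7.91 and 7.94 in untreated hearts, also without overlap, and Ccn2, its target, overlapped at 9.17, 8.88 and 9.18 against 9.81, 9.58 and 8.93. The difference of Tgfb1 was -0.29 ± 0.13 and -0.16 without finerenone replicate 3, and that of Ccn2 was -0.36 ± 0.23, with -0.175 without untreated replicate 1 and -0.62 without untreated replicate 3. The median of this list was -0.008.

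**Figure D3:**
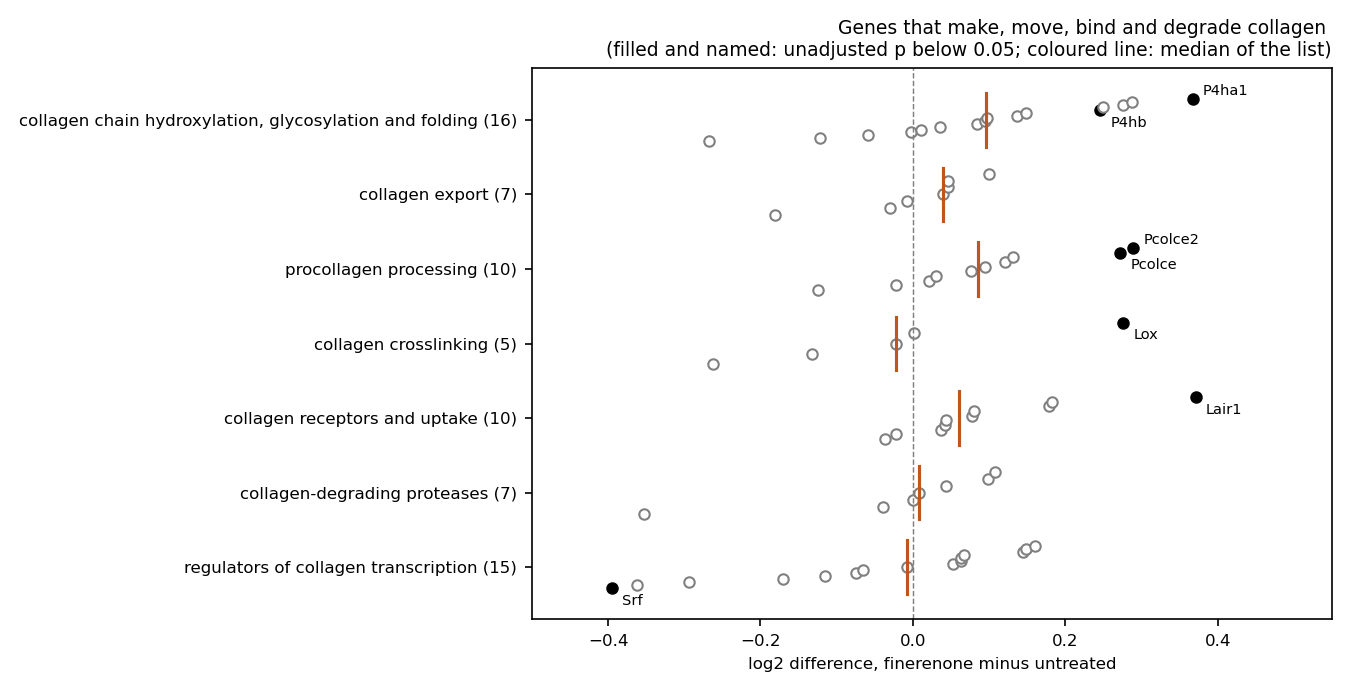
Log2 difference (finerenone minus untreated, horizontal axis) of the 70 measured genes that make, export, process, crosslink, bind, degrade or regulate collagen, 1 point per gene, with the number of genes in brackets; filled, named points have an unadjusted p below 0.05 in limma and coloured lines are list medians. The 6 filled points above 0 and the 1 below it compare with 5.69% and 2.12% of all genes.

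In whole ventricle, fewer cells of a type and less RNA per cell cannot be told apart, so markers of the cells that make collagen are given beside the collagens. Type IV chains are made by endothelial and mural cells among others. All 10 measured endothelial markers of 11 listed had negative differences, with a median of -0.39, among them Kdr, the VEGF receptor 2 (13.49, 13.08 and 13.02 in finerenone hearts against 14.61, 13.62 and 13.93 in untreated hearts), and Ptprb, a phosphatase of endothelial junctions (12.82, 12.85 and 12.89 against 13.65, 12.90 and 13.45 in untreated hearts). All 10 were above the negative-control median in every array, and their summed signal was 15.46 to 15.66 in finerenone and 15.69 to 16.61 in untreated hearts on the log2 scale. Its largest parts were Cdh5 (difference -0.73 ± 0.31, SE) and Kdr (-0.86 ± 0.27). Pecam1, Emcn and Vwf differed by -0.10, -0.13 and -0.03, so the sum does not stand for all 10 markers. Of 12 mural markers 10 had negative differences with a median of -0.18, led by Pdgfrb (9.53, 9.04 and 9.02 in finerenone hearts against 9.71, 9.68 and 9.87 in untreated hearts), while Des was higher on all finerenone arrays (16.96, 16.92 and 16.85 against 16.43, 16.64 and 16.61). The summed signal of the mural list was 17.81 to 17.88 in finerenone and 17.61 to 17.83 in untreated hearts. It was mostly that of Des, Rgs5 (difference -0.05 ± 0.21, SE) and Abcc9 (-0.31 ± 0.20). The sum therefore does not stand for the 10 markers with negative differences. Nor can it be assigned to mural cells, since whole ventricle also holds cardiomyocytes and the source of these signals was not tested. Finerenone replicate 1 was the highest finerenone array in Col4a1, in Col4a2 and in the endothelial mean. It was also the highest in the fibroblast and macrophage means, but not in the mural mean. The lowest finerenone array was replicate 2 for both chains and replicate 3 for the endothelial mean (-0.12, -0.17 and -0.36). The endothelial mean was 0.53, -0.05 and 0.16 in untreated arrays. Replicate 1 was the highest untreated array there and for Col4a2, and replicate 3 for Col4a1. The part of endothelial and mural cells in the type IV differences was not tested.

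Fibroblast markers, of the cells that make types I, III, V and VI, had positive differences for 9 of 11 measured genes of 12 listed, with a median of 0.17. All 11 were above the negative-control median in every array. The fibrillar median of 0.03 is not set against it, since 6 of those 11 genes were dim. The 5 fibrillar genes above the negative-control median in all 6 arrays differed by -0.13 to 0.21. Mfap5, a microfibril protein, measured 9.40, 9.61 and 9.66 in finerenone hearts against 9.10, 9.19 and 8.75 in untreated hearts (0.545 ± 0.14, SE; limma adjusted p = 0.597), and Medag measured 8.92, 8.78 and 8.61 against 8.15, 8.52 and 8.14 in untreated hearts (0.50 ± 0.14). The fibroblast list also holds Ddr2 and Tcf21, which stand in the receptor and regulator lists. The summed fibroblast signal was 18.09 to 18.32 in finerenone and 17.76 to 18.30 in untreated hearts. It was mostly that of Dcn (17.74 to 17.82 in finerenone and 17.34 to 17.91 in untreated hearts). All 8 markers of activated fibroblasts had positive differences with a median of 0.14, and 6 of them were above the negative-control median in every array (Cthrc1 in 0 and Comp in 4 arrays). Among them Postn, a matricellular protein of activated fibroblasts, measured 10.88, 9.57 and 10.27 in finerenone hearts against 9.68, 9.49 and 9.84 in untreated hearts. Its difference of 0.57 ± 0.32 was 0.25 without finerenone replicate 1 and 0.905 without finerenone replicate 2. Thbs4 differed by 0.58 ± 0.17 and Comp, which binds collagen, by 0.15 ± 0.08. The summed signal of the 8 markers was 13.22 to 13.64 in finerenone and 12.97 to 13.63 in untreated hearts, but it was mostly that of Acta2 (12.81 to 13.43 in finerenone and 12.71 to 13.48 in untreated hearts), a smooth muscle actin that is also on the mural list. As in the collagens, Postn was lowest in finerenone replicate 2 among the finerenone arrays, and limma called none of them at an adjusted p below 0.05.

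**Figure D4:**
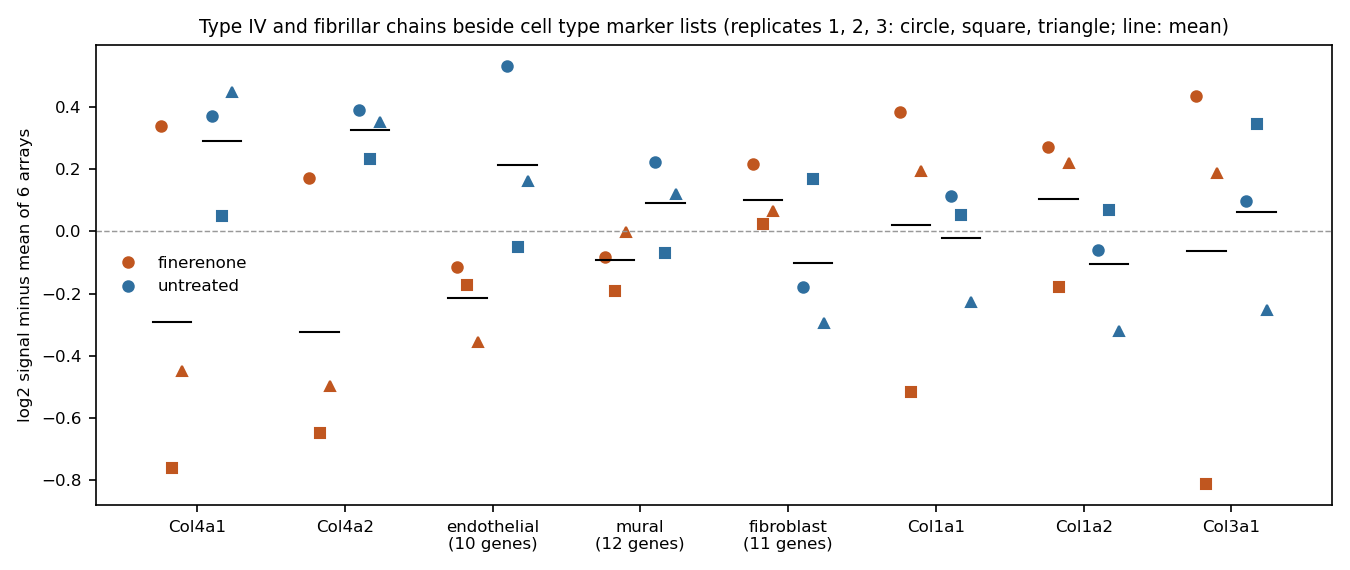
Log2 signal of each array minus the mean of the 6 arrays (vertical axis) for type IV chains, mean marker levels of endothelial, mural and fibroblast cells, and type I and III chains; orange finerenone, blue untreated, symbols replicates 1 to 3, lines group means. Col4a2 and the endothelial mean have no overlap between groups, while the groups overlap for Col4a1, the mural and fibroblast means, Col1a1, Col1a2 and Col3a1.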

How the data were processed

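Ventricular RNA of 3 finerenone-treated and 3 untreated mice was hybridised to 1 Affymetrix array per mouse. Sample titles gave the group and the replicate number. The authors deposited log2 signals per probe set. The submitters' processing notes name RMA, Affymetrix Expression Console and Affymetrix's Transcriptome Analysis Console, with no versions and no build. At its highest, 19.93, the signal lies above the log2 range of usual scanner intensities, so the scale may hold a step that is not recorded. RMA is meant to bring the arrays to a common distribution, which can hide a shift of all genes. The deposited gene values were not fully alike between arrays. The median difference over all genes was 0.028 as deposited and 0.012 after quantile normalization. RNA integrity numbers were above 7.3, per the labels.

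The table held 65956 transcript clusters, of which 30604 had 1 symbol, 2146 several and 33206 none. Symbols came from the platform annotation, updated by Entrez identifier to RefSeq of GRCm38.p6, and the cluster with the highest mean was kept for each of 30142 genes. No collagen gene had a second row. Differences are finerenone minus untreated from a limma fit (version 3.58.1, under R 4.3.3) by lmFit, then eBayes without trend or covariate, two-sided, adjusted by Benjamini-Hochberg over all genes, threshold 0.05; the fit was tested on simulated data. Background was read from 5222 probe sets marked negative in their identifiers. Python 3.11.15, pandas 2.3.3 and matplotlib 3.10.9 handled tables and plots. The number of arrays limits the precision.

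The members, lists and tests were chosen with earlier results of these data known. Values per array are given for chains of types 1, 3, 5, 8, 15 and 18, Col4a1, Col4a2 and Col6a1 to Col6a3, and for the 4 members of each class with the smallest p. Other collagens above the negative-control median were added after their values were seen. From each pathway list and the endothelial, mural, fibroblast, activated fibroblast and macrophage lists, the 2 genes with the smallest p were named, with Serpinh1, Lox, P4ha1, Postn, Tgfb1 and Ccn2; Pdgfra, also chosen, was not measured. Tnnt2, Acta2, Cthrc1, Lyz2, Dcn, Rgs5, Abcc9 and genes shared between lists were named after their values were seen. Alternatives were other normalizations, a filter on dim genes, averaged rows, another prior, array weights, the replicate block, single arrays left out and all clusters.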

Additional observations from a re-analysis of the deposited data

How the results depend on the processing

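Over the normalizations, the dim filter, averaged rows, the trended prior, array weights, the replicate block, single arrays left out and all 65956 clusters, limma called 0 genes and 0 collagen genes (1691 to 2789 of 30142 genes and 4138 of all clusters had an unadjusted p below 0.05), and Col4a1 and Col4a2 stayed negative wherever they were measured. Same-numbered arrays did not deviate together (correlations of -0.154, 0.059 and 0.058), so the replicate number was not used as a block; with the replicate block, 2 collagen genes (Col4a1 and Col4a2) had an unadjusted p below 0.05. That number was 1 (Col4a2) otherwise and 0 to 3 with single arrays left out (Col4a1, Col4a2 and Col6a3 without finerenone replicate 1, Col1a2 alone without finerenone replicate 2). Collagen genes with groups that did not overlap numbered 2, and 1 after quantile normalization, median centring, cyclic loess or the filter on dim genes. They numbered 2 to 8 with single arrays left out, where smaller groups separate more easily for any gene. The share over all genes was not counted in these alternatives, so the numbers are not read as a result about collagens. The filter on dim genes (a mean of at least 8.51) kept 5420 genes and only 2 collagens. The fibrillar median then became that of Col3a1, -0.13, the network median that of Col4a2, -0.65, and the other class had no value. Of the 2353 genes at an unadjusted p below 0.05, 72.9% were higher, against 59.2% after quantile normalization. The sign turned for Col4a5 after quantile normalization (0.01), Col5a1 after median centring (-0.007), and Col14a1 (0.066) and Col18a1 (0.002) with array weights. With single arrays left out it turned in 13 of 50 named genes: Col1a1 (-0.14 to 0.31), Col3a1 (-0.37 to 0.25), Col4a5 (-0.058 to 0.038), Col5a1 (-0.036 to 0.062), Col5a2 (-0.03 to 0.13), Col6a1 (-0.17 to 0.19), Col6a2 (-0.12 to 0.079), Col8a1 (-0.14 to 0.28), Col8a2 (-0.013 to 0.13), Col14a1 (-0.16 to 0.08), Col15a1 (-0.22 to 0.16), Col18a1 (-0.028 to 0.021) and Creb3l1 (-0.039 to 0.27). The cause was not tested. Signals near the negative controls limit 27 of the 42 genes, and Col5a3 and Col4a5 lay only just above them.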
